A study of Mus musculus with 4 samples.

Results

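Cytosolic ribosomal protein genes encode the proteins of the small (40S) and large (60S) subunits of the ribosome. Their members were all entries of the deposited gene table whose symbol is Rps or Rpl followed by a number, with or without a final a, l or x, together with Rplp0, Rplp1, Rplp2 and Rpsa. This rule found 81 genes of 23699 entries, 32 of the 40S subunit and 49 of the 60S subunit, with 1 locus for each symbol. Of these, 79 reached 1 FPKM in at least 2 libraries and were tested among 10367 entries. FPKM counts sequenced fragments per length of transcript and per size of the library.

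Ribosomal protein mRNAs are among the most abundant of growing cells, and their products are made in matched amounts because each ribosome takes a single copy of most of them. Many of these mRNAs begin with a C followed by a run of pyrimidines, the 5′ terminal oligopyrimidine (TOP) motif, through which mTORC1 and the RNA-binding protein Larp1 regulate their translation. Lymphocytes build up ribosomes when they are activated and begin to grow. Mammalian genomes also hold many processed copies of ribosomal protein genes, and the introns of the genes themselves house small nucleolar RNAs (snoRNAs) that guide the modification of ribosomal RNA.

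The data are 4 libraries of total RNA, depleted of ribosomal RNA, from splenic B cells of C57BL/6 mice. B10+ cells were sorted as high for Cd1d and positive for Cd5 and Il10, and B10- cells as negative for Cd1d, Cd5 and Il10. All cells had been kept with an antibody to Cd40 for 48 h, with LPS, PMA and ionomycin present for the last 5 h. Each of 2 cultures gave 1 B10+ and 1 B10- library, called culture 1 and culture 2 here. No unstimulated cells are in the comparison, and the number of mice behind a culture is not given in the sources used here.

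Il10, the cytokine of the sort, was at 1683 and 2329 FPKM in B10+ cells of culture 1 and of culture 2, against 9.26 and 9.62 FPKM in B10- cells. The 6 B cell markers reached 1 FPKM in all libraries. Their summed level was 537 and 370 FPKM in B10+ cells, against 654 and 433 FPKM in B10- cells. Of 7 T cell markers in the table, 5 were under 1 FPKM in all libraries and 5 were higher in B10+ cells of both cultures. Their sums were 9.73 and 7.85 FPKM in B10+ cells, against 10.3 and 3.65 FPKM in B10- cells. The 4 neutrophil and 3 NK cell markers were each under 1 FPKM in all libraries, as were 5 of 6 macrophage and monocyte markers. Summed plasma cell markers were at 182 and 99.6 FPKM in B10+ cells, against 104 and 56.2 FPKM in B10- cells. Summed erythroid markers were at 37.0 and 48.2 FPKM in B10+ cells, against 43.1 and 86.6 FPKM in B10- cells, and dendritic cell markers at 21.2 and 2.50 FPKM in B10+ cells, against 26.9 and 1.06 FPKM in B10- cells. The part of these markers in the results below was not tested. In bulk RNA, fewer cells of a type and less RNA per cell cannot be told apart.

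The annotated starts of several members carry the TOP-like sequence itself. RefSeq promoter windows on GRCm38, from 250 bases before to 50 after each gene's start, were matched by symbol for 60 of the 81 members. A C followed by further pyrimidines, at least 5 bases in all, stood exactly at an annotated start of 13 of these 60 genes (21.7%), against 813 of 27025 genes with a window (3.01%). The following 8 windows show the run in capitals, starting at the first base of the transcript, with 40 bases before the start and 20 from it. They are shown because this sequence class defines the family's best known mode of regulation, and because Rpl38, Rplp2, Rpl28, Rps27 and Rps6 come back among the values below.
Rps6 (4:86857348-86857407, minus strand): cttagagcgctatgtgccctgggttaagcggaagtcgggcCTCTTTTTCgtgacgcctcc
Rps27 (3:90213629-90213688, minus strand): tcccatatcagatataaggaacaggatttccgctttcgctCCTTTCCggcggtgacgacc
Rps10 (17:27635225-27635284, minus strand): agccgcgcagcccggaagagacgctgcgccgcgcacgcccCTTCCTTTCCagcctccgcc
Rpl38 (11:114668540-114668599, plus strand): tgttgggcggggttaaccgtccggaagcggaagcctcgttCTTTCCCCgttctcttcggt
Rplp2 (7:141447611-141447670, plus strand): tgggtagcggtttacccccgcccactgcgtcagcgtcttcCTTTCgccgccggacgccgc
Rpl28 (7:4792925-4792984, plus strand): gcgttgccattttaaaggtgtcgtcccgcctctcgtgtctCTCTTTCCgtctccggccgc
Rpl15 (14:18270967-18271026, minus strand): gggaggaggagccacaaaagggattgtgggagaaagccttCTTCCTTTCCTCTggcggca
Rpl35 (2:39005112-39005171, minus strand): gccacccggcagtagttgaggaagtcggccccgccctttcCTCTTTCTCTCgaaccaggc

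The runs ranged from the 5 bases of Rplp2 to the 13 bases of Rpl15. Within the whole windows, read on both strands, CCGGAAG occurred in 25 of 60 members (41.7%) and 9.93% of all genes, ATGGCGG in 10 members (16.7%) and 4.69% of all genes, and TATAAA in 6 members (10%) and 15.7% of all genes. None of these motifs contains another, and a match describes the letters in the window and not a bound site. CCGGAAG is the core of an ETS factor site and ATGGCGG that of a YY1 site, both known from promoters of housekeeping genes. The 13 members with the run at the start had a median log2 difference, B10+ minus B10-, of 0.14 in culture 1 and -0.63 in culture 2. The 45 tested members with a window but no such run had medians of 0.20 and -0.49. A run that begins a few bases away from the annotated start was not counted. These 45 may thus include genes with the TOP motif, and the 2 groups do not compare TOP with other mRNAs.

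No ribosomal protein gene was called different between B10+ and B10- cells on the deposited scale. In limma on log2(FPKM + 1) over all entries, 0 of 79 tested members passed an adjusted p of 0.05, where 0 of 10367 entries did (0%). At an unadjusted p under 0.05, 0 members stood against 118 entries (1.14%). With the culture as a replicate block, again 0 members passed, where 81 entries were called higher (0.781%) and 8 lower (0.0772%). With that block, 0 members were higher and 2 lower at an unadjusted p under 0.05, where 10.5% of entries were higher and 4.66% lower. The median log2 difference of the members was -0.20 over both cultures, against 0.003 for all tested entries.

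The median of both cultures hides a difference in direction. In culture 1, 66 of 79 members were higher in B10+ cells, the median log2 difference was 0.17, and 75 lay within 1.5-fold. In culture 2, 70 members were lower in B10+ cells, the median was -0.52, and 15 were more than 2-fold lower, as were 106 of all tested entries (1.02%). As deposited, 58 members were higher in culture 1 and lower in culture 2, a pattern that 15.5% of all entries had. A further 12 members were lower in both cultures, 8 were higher in both and 1, Rps16, was lower in culture 1 and higher in culture 2. Among all entries, 31.8% were lower in both, 33.4% higher in both and 19.2% lower in culture 1 and higher in culture 2. With 1 library of each subset per culture, the difference between the cultures was not tested.

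The direction in culture 1 depends on how the libraries are scaled, and that in culture 2 does not. Histone genes made up 9.11% of the FPKM outside small RNA entries in B10+ cells of culture 1, against 2.41% in B10- cells, and 1.46% in B10+ cells of culture 2, against 0.299% in B10- cells. Scaled to library sums without histone entries, the members' median in culture 1 was 0.01, and 38 members had the pattern of higher in culture 1 and lower in culture 2. Scaled to sums without small RNA entries, that median was -0.09, and 52 of 79 members were lower in both cultures. After quantile normalization it was -0.08, and 41 were lower in both, while upper-quartile scaling gave 0.15 and 13. In culture 2 the median lay between -0.56 and -0.46, with 68 to 73 of 79 members lower in B10+ cells, under the deposited and these 4 other scalings. The median of all tested entries in culture 1 moved from -0.01 as deposited to -0.23 with sums without small RNA entries, and the members' median lay above it in both. After quantile normalization it was -0.04, above the members' median.

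**Figure D1:**
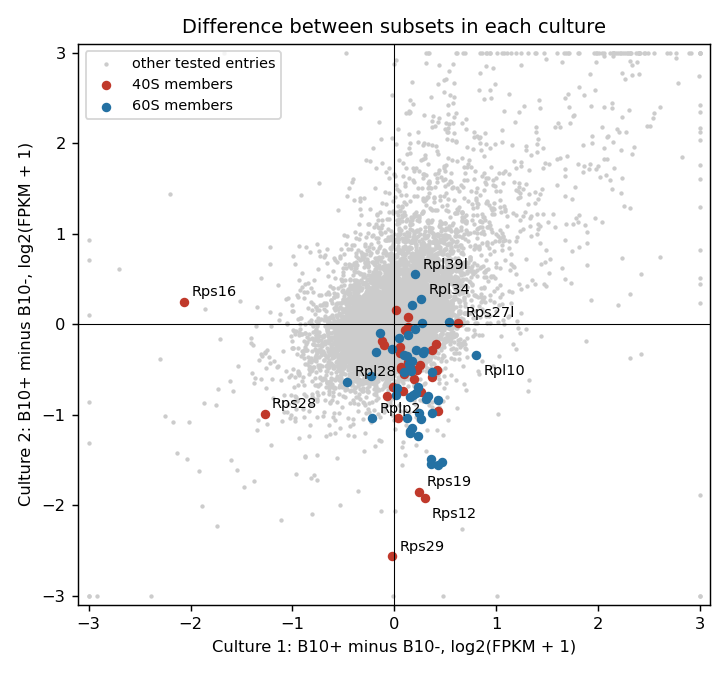
Log2 difference, B10+ minus B10-, on the log2(FPKM + 1) scale in culture 1 (horizontal) and culture 2 (vertical) for 79 tested ribosomal protein genes (red, 40S; blue, 60S) and all other tested entries (grey, drawn at the edge where beyond 3). Most members lie right of 0 and below 0, in the area of the 58 members that were higher in culture 1 and lower in culture 2 as deposited, a count that falls to 21 with library sums without small RNA entries.

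In sum over the 81 members, B10+ cells of culture 1 had 86971 FPKM, against 78212 FPKM in B10- cells, a ratio of 1.11. B10+ cells of culture 2 had 31107 FPKM, against 39064 FPKM in B10- cells, a ratio of 0.796. A single snoRNA entry, Snord16a, held 85.2 to 94.1% of all summed FPKM, so shares were taken without small RNA entries. Members then made up 13.0% of the FPKM in B10+ cells of culture 1, against 14.0% in B10- cells, and 6.30% in B10+ cells of culture 2, against 8.13% in B10- cells. As a share, B10+ cells were thus at or under B10- cells in both cultures. With histone entries also left out, the shares were 14.3% in each subset of culture 1, and 6.40% in B10+ against 8.16% in B10- cells of culture 2.

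For the members, the cultures lay further apart than the subsets. Both libraries of culture 1 lay above both of culture 2 for 75 of 79 members, where 51.7% of all tested entries did so. The median log2 difference, culture 1 minus culture 2 averaged over the subsets, was 1.14 for members and 0.31 for all entries. Members ranged from -2.55 for Rps16 to 2.39 for Rps19, and Rps16 alone lay lower in both libraries of culture 1, as 28.7% of entries did. Nuclear genes of the mitochondrial ribosome had this gap too, with 67 of 76 higher in both libraries of culture 1 and a median of 1.01.

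**Figure D2:**
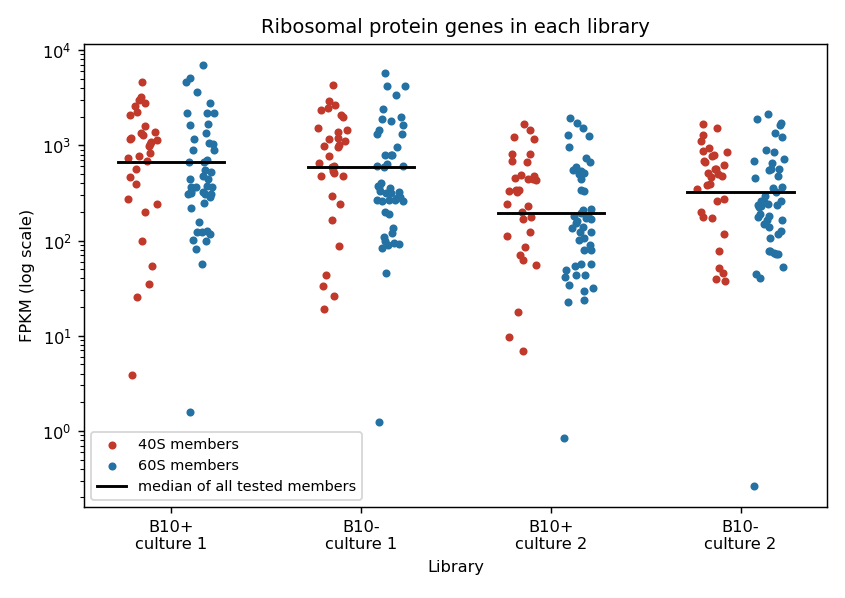
FPKM on a log scale of the 79 tested members in each library, with 40S genes (red) left of 60S genes (blue) and the median of tested members as a black line. The point cloud of both culture 1 libraries sits above that of both culture 2 libraries, and within culture 2 the B10+ median sits below the B10- median.

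Deposited levels ranged widely within a complex whose proteins are needed in matched amounts. In FPKM, which is per transcript length, 9 of the 79 tested members stood at 1000 or more in every library and 8 under 100 in every library. The highest 60S members were Rpl41, the smallest ribosomal protein, with 6968 and 1711 FPKM in B10+ cells of culture 1 and of culture 2, against 5790 and 1695 FPKM in B10- cells, and Rpl8, with 4667 and 1951 FPKM in B10+ cells, against 4245 and 2111 FPKM in B10- cells. Among the highest 40S members was Rps9, with 2963 and 1447 FPKM in B10+ cells, against 2937 and 1291 FPKM in B10- cells. For these abundant genes the subsets lay close together and the cultures far apart. At the low end of the 40S list, Rps27 had 34.5 and 17.6 FPKM in B10+ cells, against 33.6 and 37.2 FPKM in B10- cells. At the low end of the 60S list, among broadly used genes, Rpl31 had 56.2 and 22.6 FPKM in B10+ cells, against 45.2 and 40.8 FPKM in B10- cells. All 50-base stretches of the coding sequences of Rps27, Rpl31 and Rpl41 also occur in other genes, a limit described below. The entry Gm9846, inside Rps27, held 34.0 to 72.5% of the sum of both entries. The part of such shared sequence in these levels was not tested.

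Among the 32 genes of the 40S subunit, 22 were higher in culture 1 and lower in culture 2, 6 lower in both and 3 higher in both, with medians of 0.12 in culture 1 and -0.49 in culture 2. Rps28, which lies near the exit of the mRNA channel, had the smallest p of all members. All 50-base stretches of its coding sequence also occur in other genes, a limit described below. Rps28 stood at 245 and 177 FPKM in B10+ cells of culture 1 and of culture 2, against 592 and 351 FPKM in B10- cells. Both B10+ libraries lay under both B10- libraries, as they did for 2 of 79 members and 7.47% of all entries, while 0 members had both B10+ libraries above both B10- libraries, as 6.6% of entries did. The gene (chromosome 17, 33959982 to 33961443, mm9) had log2 differences of -1.27 and -0.99, a mean of -1.13 ± 0.20 (SD over 2 cultures). Its limma adjusted p was 0.0709 with the culture block and 0.999989 without it, so it was not called, and it was lower in both cultures under each of the 5 scalings. In settings with the block chosen after seeing the data, its limma adjusted p was 0.0433 after quantile normalization and 0.0230 with library sums without small RNA entries, and over all scalings run with the block it lay between 0.0230 and 0.0962.

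The other member with B10+ below B10- in all libraries was Rps29, a zinc-binding protein of the 40S head (chromosome 12, 70258709 to 70260173, mm9). It stood at 25.5 and 6.95 FPKM in B10+ cells, against 25.9 and 45.9 FPKM in B10- cells. Its log2 difference of -1.29 ± 1.797 (SD over 2 cultures) came from culture 2, since in culture 1 it was -0.02. Rps12, singled out after its values were seen, resembled it with 54.0 and 9.65 FPKM in B10+ cells, against 43.7 and 39.3 FPKM in B10- cells. Rps19, the gene most often mutated in Diamond-Blackfan anaemia in people, had 776 and 70.7 FPKM in B10+ cells, against 656 and 257 FPKM in B10- cells. For both, B10+ cells were the highest library in culture 1 and the lowest in culture 2.

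Rps16 (chromosome 7, 29135708 to 29137717, mm9) stood apart from the other members. It was at 3.83 and 61.8 FPKM in B10+ cells, against 19.2 and 51.8 FPKM in B10- cells, and was the lowest tested 40S member in B10+ cells of culture 1. The log2 differences were -2.06 and 0.25. A 94 bp entry inside the locus, LOC100302567, was listed at 755102 FPKM in B10- cells of culture 1 and at 0 in the other libraries. The part of that entry in the value of Rps16 was not tested.

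Near the top of the 40S list by mean difference stood Rps27l and Rps26. Rps27l, a p53-inducible relative of Rps27, had 729 and 202 FPKM in B10+ cells, against 472 and 199 FPKM in B10- cells, with log2 differences of 0.63 and then 0.02. Rps26 had differences of 0.41 and -0.22. Of these 4 differences, that of Rps27l in culture 1 was the largest. Rps6, the target of the S6 kinases downstream of mTORC1, had 1084 and 428 FPKM in B10+ cells, against 987 and 570 FPKM in B10- cells. Rpsa, also known as the laminin receptor precursor, had 1166 and 442 FPKM in B10+ cells, against 1115 and 621 FPKM in B10- cells. Rps14, whose loss marks the 5q- syndrome in people, and Rps27a, which is made as a fusion with ubiquitin, had log2 differences of 0.05 and 0.42 in culture 1 and of -0.32 and -0.50 in culture 2. All 4 followed the family, a little higher in B10+ cells of culture 1 and lower in culture 2 as deposited.

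Among the 47 tested genes of the 60S subunit, 36 were higher in culture 1 and lower in culture 2, 6 lower in both and 5 higher in both, with medians of 0.18 and -0.57. Their lowest differences were those of Rplp2, Rpl12 and Rpl38. Rpl12, a protein at the base of the stalk, had 245 and 43.0 FPKM in B10+ cells, against 191 and 127 FPKM in B10- cells. Rpl38, which is required in mouse embryos for the translation of Hox mRNAs, had 334 and 80.0 FPKM in B10+ cells, against 260 and 227 FPKM in B10- cells. In both genes the B10+ libraries were the extremes of the 4, high in culture 1 and low in culture 2. Rpl28 had 98.2 and 49.1 FPKM in B10+ cells, against 136 and 76.7 FPKM in B10- cells. It was lower in B10+ cells of both cultures, with log2 differences of -0.46 and -0.63 (limma adjusted p 0.203 with the block, unadjusted p 0.0119), and the libraries overlapped between the subsets because of the gap between cultures.

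The stalk recruits the elongation factors to the ribosome and is built of Rplp0, Rplp1 and Rplp2. Rplp0 had 2171 and 956 FPKM in B10+ cells, against 1995 and 1219 FPKM in B10- cells. Rplp1 had 5058 and 1524 FPKM in B10+ cells, against 4154 and 1892 FPKM in B10- cells. Rplp2 had 313 and 79.9 FPKM in B10+ cells, against 364 and 165 FPKM in B10- cells. As deposited, it was the stalk member lower in both cultures, a pattern that depends on the scaling of culture 1 described above. In culture 2 its log2 difference was -1.04, against -0.35 for Rplp0 and -0.31 for Rplp1.

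Rpl5 and Rpl11 bind 5S ribosomal RNA and, outside the ribosome, the p53 regulator Mdm2. Rpl5 had 471 and 160 FPKM in B10+ cells, against 401 and 259 FPKM in B10- cells, and Rpl11 had 219 and 56.4 FPKM in B10+ cells, against 200 and 117 FPKM in B10- cells. Both were lower in B10+ cells of culture 2, with log2 differences of -0.69 and -1.04. Rpl22, which is needed for the development of alpha beta T cells in mice, and Rpl13a, which human monocytes release from the ribosome after interferon gamma, had smaller differences of -0.28 and -0.29 in culture 2. Rpl10, which joins the 60S subunit late in its maturation, had 555 and 192 FPKM in B10+ cells, against 318 and 244 FPKM in B10- cells. Its log2 difference of 0.80 in culture 1 was the highest positive one of the tested members there.

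The highest mean differences among 60S genes were those of Rpl39l, Rpl39 and Rpl34. Rpl39, which lines the tunnel through which the new chain leaves, had 2752 and 730 FPKM in B10+ cells, against 1893 and 717 FPKM in B10- cells. Rpl34 had 321 and 167 FPKM in B10+ cells, against 268 and 138 FPKM in B10- cells, with log2 differences of 0.26 and 0.28. Rpl39l, the relative of Rpl39 known from testis, stood at 1.57 and 0.851 FPKM in B10+ cells, against 1.23 and 0.262 FPKM in B10- cells, and was the one tested member under 2 FPKM in all libraries. Rpl10l, known from testis, was listed at 0 in all libraries but B10+ of culture 2, which had 0.391 FPKM. Rpl3l, known from heart and skeletal muscle, stayed at or under 0.0746 FPKM in all libraries. These 2 genes were not tested.

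**Figure D3:**
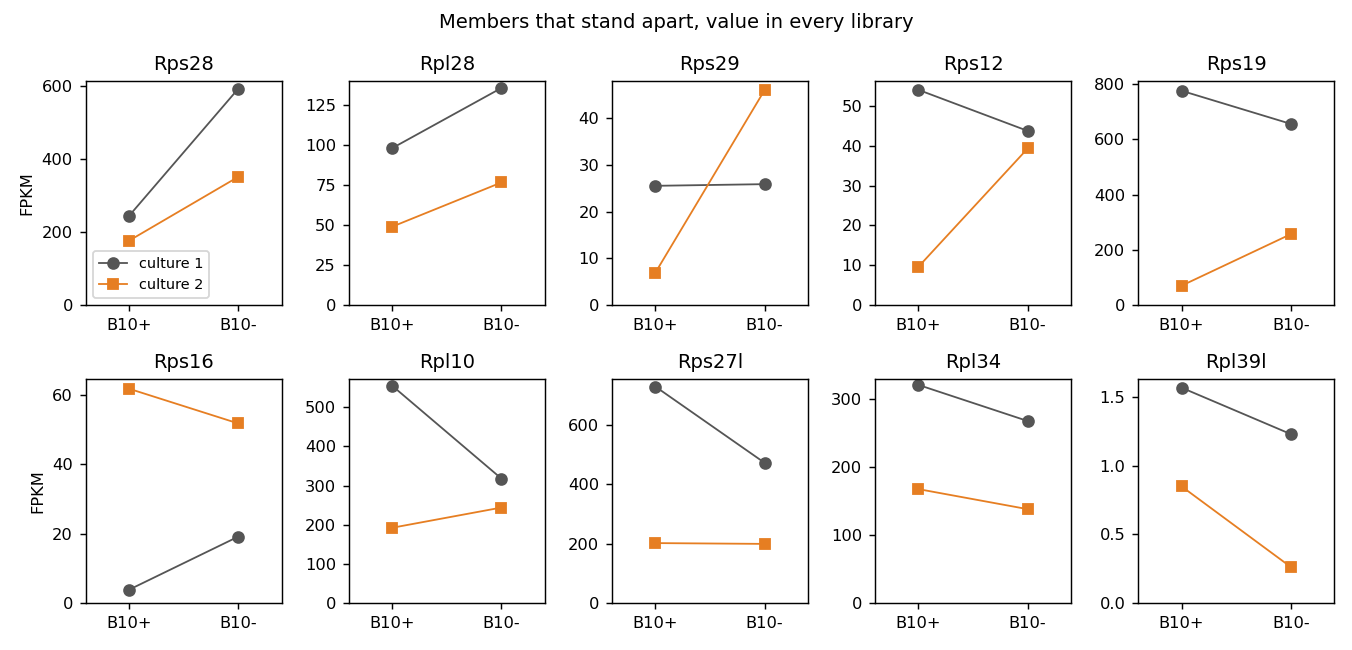
FPKM in B10+ (left) and B10- (right) cells of culture 1 (grey circles) and culture 2 (orange squares) for 10 members, each on its own linear axis from 0. Rps28 and Rpl28 are lower in B10+ cells along both lines, Rps29, Rps12 and Rps19 along the culture 2 line, and Rps16 has its culture 2 line above its culture 1 line.

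The 19 members mutated in Diamond-Blackfan anaemia in people, a failure of red cell production, form a list of their own. Of them, 14 were higher in culture 1 and lower in culture 2, 5 lower in both and 0 higher in both, with medians of 0.18 and -0.79. Rps28 and Rps29 belong to this list. All 79 tested members had medians of 0.17 and -0.52.

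Sequence shared with other genes sets a limit on these values. For each member, all 50-base stretches of its GENCODE coding sequence were looked up in the transcripts of other annotated genes, processed copies included. In 67 of 81 members, at least 50% of the stretches occurred elsewhere, and in 3 members none did. Rps28, Rps29, Rps12, Rps16, Rps27, Rpl28, Rpl12, Rpl31, Rpl38 and Rpl41, described above, were among the members with all of their stretches elsewhere. How the authors' counting placed reads with several matches is not given in the sources used here, so the level of most single members is uncertain.

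In culture 2 the difference between the subsets was graded with this sharing. The 12 tested members with less than 50% shared stretches had a median log2 difference of -0.08 in culture 2, with 8 of 12 lower in B10+ cells and a range of -0.33 to 0.55. The 38 members with 50% or more but not all stretches shared had a median of -0.52, and the 29 with all stretches shared had -0.78. More than 2-fold lower were 0, 6 and 9 members of these groups. In culture 1 the medians were 0.12, 0.17 and 0.23. Over the 79 members, Spearman's rho between the shared percentage and the culture 2 difference was -0.50, and that between the mean FPKM and the culture 2 difference was 0.51. The shared percentage and the mean FPKM were themselves related, with a rho of -0.48, and all of these points come from the same 4 libraries.

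**Figure D4:**
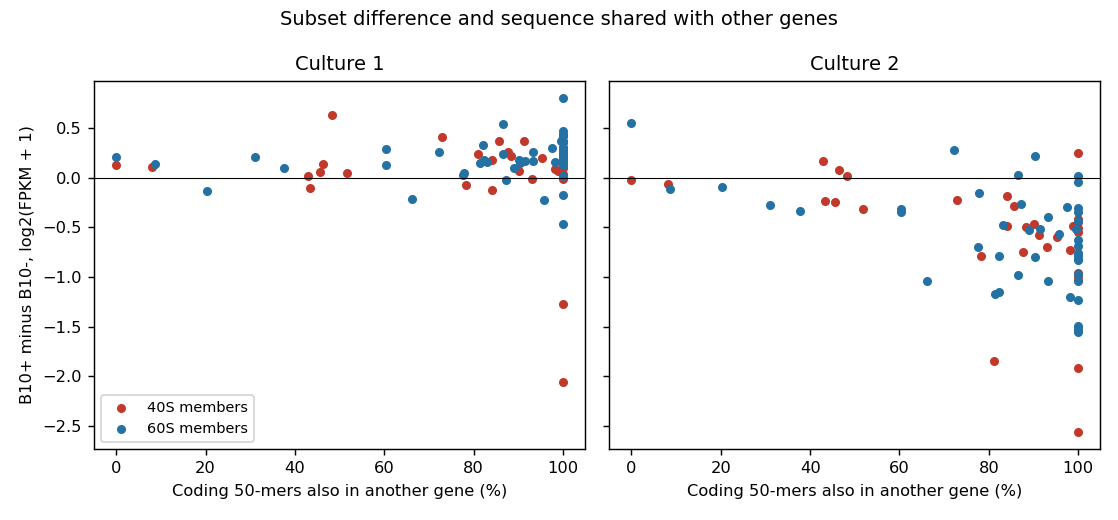
Percentage of a member's coding 50-base stretches found in another gene (horizontal) against the log2 difference B10+ minus B10- (vertical) in culture 1 (left) and culture 2 (right), 40S genes in red and 60S genes in blue. In culture 2 the points with less than 50% shared stretches lie between -0.33 and 0.55, and those with more reach down to -2.56.

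The level showed the same grading. In culture 2 the median difference was -0.83 for the 14 members under 100 FPKM on average, -0.78 for the 31 from 100 to under 500 FPKM, -0.49 for the 15 from 500 to under 1000 FPKM and -0.25 for the 19 from 1000 FPKM. Other tested entries had medians of 0.03, -0.07, -0.02 and 0.22 in the same ranges. The members' median was thus below that of other entries in each range. The parts of level and of shared sequence in this grading were not told apart here.

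Some members are split in the table with a copy in the same place. Gm15772, which overlaps Rpl26, held 92.4 to 95.9% of the sum of both entries. Rpl26 alone had log2 differences of -0.03 and -0.27 in cultures 1 and 2, and the sum 0.20 and -0.62. Gm9846 lies in Rps27, and the sum had a log2 difference of -2.30 in culture 2, against -1.03 for Rps27 alone. Gm12191 overlaps Rpl30, a member singled out for this, and the sum there had -1.49, against -0.48 for Rpl30 alone. Adding Gm5148, a copy with 91.8% of the stretches of Rps23, to Rps23 gave -0.31 in culture 2, against -0.55 for Rps23 alone. In these 4 cases, chosen after seeing the data, the sum was lower in B10+ cells of culture 2, and its difference was larger than that of the member alone in 3 cases and smaller in 1.

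Most snoRNAs measured inside ribosomal protein genes lay in the opposite direction to their hosts between the cultures. The table holds 32 snoRNA entries in the loci of 22 members. All 11 of the H/ACA class, which guide pseudouridylation, had values. These entries are 98 to 134 bp long. The deposited FPKM of such short entries cannot be turned back to fragments, which limits any direction read between libraries. Of the 11, 9 were higher in both libraries of culture 2 than in both of culture 1, as were 28.7% of all tested entries. Of these 9, Snora7a, in Rpl32, was only 1.26-fold higher in culture 2 with both subsets summed. Snora33, in Rps12, was listed at 0 in B10- cells of culture 1. All 11 hosts had a higher mean in culture 1. The other 2 entries, Snora52 in Rplp2 and Snora62 in Rpsa, had libraries that overlapped between the cultures. Snora52 had 4794 and 6469 FPKM in B10+ cells, against 4659 and 3373 FPKM in B10- cells. Snora62 had 25.0 FPKM and was listed at 0 in B10+ cells of culture 1 and of culture 2, against 25.2 and 137 FPKM in B10- cells, so its log2 mean gives no direction between the cultures. Snora21, in Rpl23, had 1324 and 17649 FPKM in B10+ cells of culture 1 and of culture 2, against 1901 and 9882 FPKM in B10- cells. Snora64, in Rps2, had 17545 and 125313 FPKM in B10+ cells, against 34978 and 74276 FPKM in B10- cells. Snora69, in Rpl39, had 28.2 and 6740 FPKM in B10+ cells, against 133 and 2488 FPKM in B10- cells. In these 3, picked after their values were seen, B10+ cells were lower in culture 1 and higher in culture 2, the reverse of most members as deposited.

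The C/D class, which guides 2′-O-methylation, gave few values. Of 21 such entries, the 18 of 89 bp or shorter were listed at 0 in all libraries, and the 3 of 91 bp or longer had values. Snord16a, inside the locus of Rpl4 (chromosome 9, 64023239 to 64023329, mm9), is 91 bp long and had the highest FPKM of the table, with 29886200 and 27157400 FPKM in B10+ cells, against 23176300 and 49288600 FPKM in B10- cells. Its host Rpl4 had log2 differences of -0.14 and -0.10. Of the 14 snoRNA entries with values, 0 were called with the culture block, where 0.858% of all entries were called in either direction. The 22 hosts had medians of 0.15 and -0.51 in cultures 1 and 2, and the 57 other tested members 0.17 and -0.52. The length at which values begin and the height of these values were not traced further, since the deposited FPKM of such short entries cannot be turned back to fragments.

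**Figure D5:**
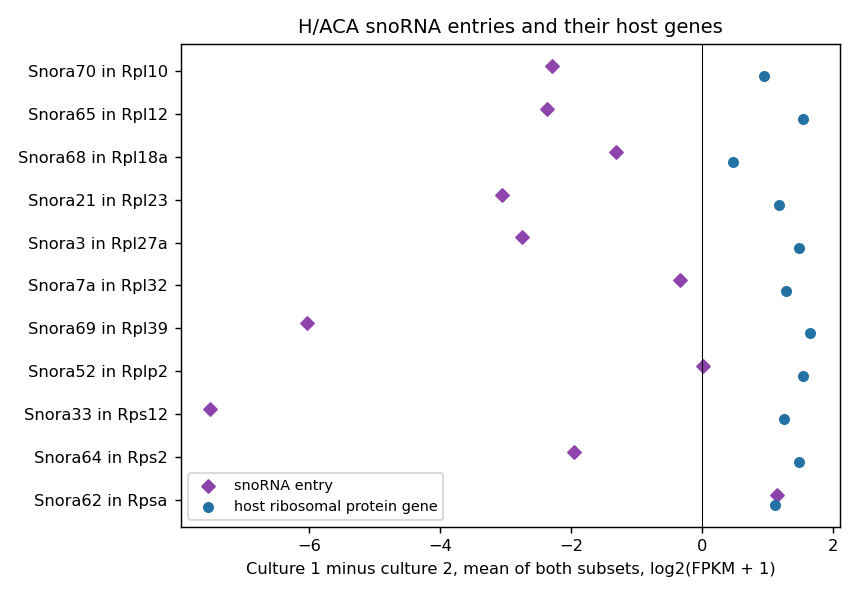
Difference between the cultures, culture 1 minus culture 2 as the mean of both subsets on the log2(FPKM + 1) scale, for 11 H/ACA snoRNA entries (purple diamonds) and the ribosomal protein genes that hold them (blue circles). All 11 hosts lie right of 0, and 9 snoRNA entries lie left of it. Snora33 and Snora62 are each listed at 0 in 1 library.

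Other genes of the ribosome and of the TOP class had a median nearer to 0 in culture 2. Of 25 tested genes, 10 were higher in culture 1 and lower in culture 2, 10 lower in both and 3 higher in both, with medians of 0.02 and -0.16. Fau, whose product is processed to the 40S protein Rps30, had 823 and 274 FPKM in B10+ cells, against 768 and 344 FPKM in B10- cells. Eef1a1, the elongation factor that brings tRNA to the ribosome, had 9914 and 4847 FPKM in B10+ cells, against 10247 and 6807 FPKM in B10- cells. Vim was higher in B10+ cells of both cultures, with log2 differences of 1.46 and 1.95, and fell just short of a call (limma adjusted p 0.0502 with the block). Hnrnpa1 was the one gene of this list called with the block, lower in B10+ cells (limma adjusted p 0.026). Its log2 differences were -2.92 and -3.36 in cultures 1 and 2. Its locus overlaps the entries Gm5643 and Gm10052. Gm5643 had 97.95 and 235 FPKM in B10+ cells of culture 1 and of culture 2, against 136 and 12.5 FPKM in B10- cells. In culture 2 Gm5643 thus lay opposite to Hnrnpa1, and in culture 1 in the same direction. The part of the overlapping entries in this call was not tested. The 1 called of 25, beside 0.0772% of all entries called lower, is therefore not read as an excess of the list.

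In a broad list around mTORC1 and the control of TOP mRNAs, 0 genes were called in either fit, where 0% of all entries were called without the block and 0.858% with it. The list also takes in Rictor and Larp7, for which no control of TOP mRNAs is claimed here. Of 23 tested genes, 13 were lower and 4 higher in both cultures, where 31.8% of entries were lower and 33.4% higher in both, with medians of -0.10 and -0.16. Mtor, the kinase itself, had 8.03 and 29.0 FPKM in B10+ cells, against 12.6 and 33.7 FPKM in B10- cells. Rptor, which brings substrates to mTORC1, had 5.68 and 22.2 FPKM in B10+ cells, against 7.89 and 28.5 FPKM in B10- cells. Larp1, the TOP mRNA binding protein, had 31.4 and 215 FPKM in B10+ cells, against 40.9 and 220 FPKM in B10- cells. In contrast to most ribosomal protein genes, these 3 stood higher in culture 2 than in culture 1. Of the 23 genes, 14 were higher in both libraries of culture 2, as were 28.7% of all entries. Another 6 were higher in both libraries of culture 1, as were 51.7% of all entries. Eif4ebp1 was among these 6, with 159 and 21.4 FPKM in B10+ cells, against 183 and 37.2 FPKM in B10- cells.

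Chaperones of ribosomal proteins and genes of the 5S RNA and p53 branch gave a like count. Of 15 tested genes, 8 were lower and 2 higher in both cultures, with medians of -0.19 and -0.07, and 0 were called with the block (0.858% of all entries in either direction). Tsr2, the chaperone of Rps26, had 15.2 and 16.1 FPKM in B10+ cells, against 21.7 and 22.4 FPKM in B10- cells, and its log2 difference was -0.47 ± 0.03 (SD, n = 2 cultures), with a limma adjusted p of 0.283 in the blocked fit. Trp53, which encodes p53, had 2.94 and 17.8 FPKM in B10+ cells, against 6.23 and 12.8 FPKM in B10- cells. The nuclear genes of the mitochondrial ribosome differed in pattern from the cytosolic ones. Of 76 tested, 25 were higher and 15 lower in both cultures and 34 higher in culture 1 and lower in culture 2, with medians of 0.22 and -0.08, and 0 were called with the block. That the lists differ from the members in culture 2 was not tested.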

How the data were processed

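The authors deposited 1 table of FPKM values, per the labels, with a column for each of the 4 libraries and a symbol and mm9 locus for each entry. TopHat 1.3.2, bcl2fastq 1.8.4, Cufflinks 2.1.1, DESeq (no version) and the build mm9 are named in the submitters' processing notes, which give them no role. For the annotation, for strand and for reads that match several places, the procedure is not given in the sources used here. Depth is unknown, which leaves FPKM without counting intervals. Loci start from 0 in the table and are printed with 1 added.

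Entries with at least 1 FPKM in 2 libraries were tested as log2(FPKM + 1), a scale that understates changes of low genes. The test was limma-trend (limma 3.58.1, R 4.3.3), two-sided, and p-values were adjusted by Benjamini-Hochberg over all tested entries at 0.05. The script was checked on simulated data. The design has no term for the culture, and a replicate block by culture was fitted beside it. By the labels, libraries of the same culture form pairs. Their log2 values correlated at 0.965 and 0.947 (Pearson), those of the B10+ libraries at 0.840 and those of the B10- libraries at 0.836, and deviations from subset means correlated at 0.865 within cultures. Replicates are 2 cultures, and the blocked fit has 1 residual degree of freedom.

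Members and lists were chosen with earlier results of these data known, so lists are described by counts and medians only. Named members are the 3 highest and 3 lowest differences and 2 highest and 2 lowest levels of each subunit, those with an unadjusted blocked p under 0.05, members of known role, restricted paralogues and members listed at 0. A few items that this rule takes are not reported here. Others were singled out after their values were seen: Rps12, Rps10, Rpl15, Rpl35, Rpl26, Rpl30, Rpl23, Rps15a, Rps23, Rps2 and Rpl4. Shared sequence was counted on GENCODE M21 coding sequences matched by symbol, and promoter sequences are from RefSeq on GRCm38. No coordinates were converted between builds. Alternatives were other pseudocounts, filters and scalings, summed loci, and each library left out.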

Additional observations from a re-analysis of the deposited data

How the results depend on the processing

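The members' median log2 difference stayed negative under the other pseudocounts, filters and scalings run, between -0.35 with library sums without small RNA entries and -0.20, and 0 members were called without the block. The replicate block by culture gave 89 called entries in all, upper-quartile scaling with that block 82, and a pseudocount of 0.1 FPKM or library sums without histone entries 1 each, without the block. In fits chosen after seeing the data, the replicate block gave 101 called entries with loci of a symbol summed, 190 after quantile normalization, 57 with sums without histone entries and 209 with sums without small RNA entries (1 without the block), and 1 member called lower, Rps28, after quantile normalization and with sums without small RNA entries. The block changed no other member's call. Leaving out 1 library lets the gap between cultures into the fit. It gave 4 to 102 called entries, members' medians of -0.92 (without B10+ replicate 1), 0.16 (without B10- replicate 1), 0.57 (without B10+ replicate 2) and -0.60 (without B10- replicate 2), and log2 ratios of summed members from -0.83 to 0.65, against -0.09 with all libraries. From 15 to 58 members changed sign in these 4 fits, with 2 to 10 under the other scalings. Subset and culture then share libraries, so such fits give no separate estimate of either. With 2 cultures and depth unknown, small differences of single members cannot be told from noise.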

Other observations

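Copies of ribosomal protein genes with symbols of their own in the table gave uneven values beside their source genes. Rpl34-ps1, which overlaps Rpl34 and holds 72.2% of its coding 50-base stretches, was at 25.6 and 9.71e-05 FPKM in B10+ cells of culture 1 and of culture 2, against 0.000128 and 16.1 FPKM in B10- cells, while Rpl34 itself varied little between the subsets. Gm9846, which has all stretches of Rps27, was at 63.6 and 9.09 FPKM in B10+ cells, against 45.6 and 98.2 FPKM in B10- cells. Rps19-ps3 was at 150 and 24.5 FPKM in B10+ cells, against 120 and 66.4 FPKM in B10- cells, the same order of libraries as Rps19. Gm11968, a copy of Rps15a, was at 391 and 141 FPKM in B10+ cells, against 354 and 142 FPKM in B10- cells, above Rps15a itself in every library. These copies were chosen after their values were seen.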
